A study of Mus musculus with 6 samples.

Results

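The MHC class I presentation genes described here are B2m, H2-K1, H2-D1, H2-T23, H2-Q7, Tap1, Tap2, Tapbp and Nlrc5. They were chosen by symbol from the class I pathway, and all 9 were found among the 19848 genes of the RNA table. Levels are SCT values per cell. An SCT value is the whole-number corrected UMI value of SCTransform, in which the depth of a cell has been evened out, and UMIs are the molecule tags that give raw counts.

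The cells were mononuclear cells enriched on Percoll from papain-digested whole brains of naive female C57BL/6 mice, after perfusion with PBS. Young mice were 12 weeks old and aged mice 72 weeks old. At each age 6 mice received vehicle and kept their gut microbiota (control), and 6 received antibiotics that depleted it (ABX). Brains were processed singly, those of each group were then combined into 3 pools, and these 12 pools were the replicates. All groups shared sex, strain, dissociation and staining with the same antibody pool. Apart from the hashtag antibodies that marked the pools, whose targets were not examined here, no antibody bound a class I molecule.

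The 2 ages went into different wells of the 10x Chromium, so age and well cannot be told apart. Within each well the control pools carried other hashtags than the ABX pools, and that too cannot be told apart from the treatment. The table held 13052 cells, and the pools held 760 to 1590 cells each with median raw totals of 6512 to 7226.5 UMIs per cell. Between the wells 59 cell barcodes were shared, and leaving those cells out changed no call of a class I gene in microglia.

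Class I molecules show peptides from inside the cell to CD8+ T cells. H2-K1 and H2-D1 encode the classical heavy chains, B2m the light chain that every heavy chain needs to reach the surface, and H2-T23 and H2-Q7 the nonclassical heavy chains Qa-1 and Qa-2. Tap1 and Tap2 form the transporter that brings peptides into the endoplasmic reticulum, Tapbp encodes tapasin, which holds the empty heavy chain beside that transporter, and Nlrc5 encodes the transactivator of class I genes. Interferons raise the pathway in most cells. In the healthy brain its level is known to be low, and microglia, the resident macrophages of the brain tissue, are among the cells that raise it.

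Most members lie in the major histocompatibility complex of chromosome 17. In the GRCm38 assembly RefSeq places Tapbp at chr17:33919478-33929290, H2-K1 at chr17:33996012-34000619, Tap1 at chr17:34187556-34197225, Tap2 at chr17:34204479-34216321, H2-D1 at chr17:35263094-35267497, H2-Q7 at chr17:35439140-35443773 and H2-T23 at chr17:36029977-36032701. B2m lies at chr2:122147687-122153082 and Nlrc5 at chr8:94434335-94527272. H2-K1, H2-D1, H2-Q7 and the neighbouring H2-Q6 are near-identical copies in parts of their sequence, so reads may have been split between them, and their separate values are uncertain to that extent.

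Promoter sequences were taken from RefSeq (GRCm38.p6), which had a window for 7 of the 9 members. The stretches printed here end just before the start site of the window (for H2-Q7 the last bases lie inside the annotated gene) and belong to members that moved with age in microglia. Capitals mark matches to motifs of the class I promoter on either strand. These are the κB letters GGGGATTCC or GGACTTTCC, the interferon-stimulated response element core GAANNGAAA or GAAANNGAA, the X2 core TGACG and the Y box CCAAT.
B2m, chr2:122147487-122147686, plus strand: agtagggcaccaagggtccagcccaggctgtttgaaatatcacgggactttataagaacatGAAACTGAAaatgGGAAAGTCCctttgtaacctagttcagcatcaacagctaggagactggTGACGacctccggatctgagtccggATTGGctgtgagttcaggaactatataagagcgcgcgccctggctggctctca
H2-D1, chr17:35262894-35263093, plus strand: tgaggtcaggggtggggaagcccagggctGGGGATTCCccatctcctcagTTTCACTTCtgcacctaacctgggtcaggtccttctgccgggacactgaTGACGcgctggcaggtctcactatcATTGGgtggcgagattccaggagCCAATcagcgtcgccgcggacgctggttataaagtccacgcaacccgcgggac
H2-Q7, chr17:35438955-35439154, plus strand: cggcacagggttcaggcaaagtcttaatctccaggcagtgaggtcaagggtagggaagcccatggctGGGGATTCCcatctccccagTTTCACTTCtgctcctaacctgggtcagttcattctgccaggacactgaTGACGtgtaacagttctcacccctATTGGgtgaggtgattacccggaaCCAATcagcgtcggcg
H2-T23, chr17:36032702-36032901, minus strand: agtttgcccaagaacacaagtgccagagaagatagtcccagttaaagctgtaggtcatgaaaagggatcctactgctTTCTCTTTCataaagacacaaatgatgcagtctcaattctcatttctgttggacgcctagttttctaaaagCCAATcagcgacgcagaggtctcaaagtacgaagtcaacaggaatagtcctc
Tap1, chr17:34187356-34187555, plus strand: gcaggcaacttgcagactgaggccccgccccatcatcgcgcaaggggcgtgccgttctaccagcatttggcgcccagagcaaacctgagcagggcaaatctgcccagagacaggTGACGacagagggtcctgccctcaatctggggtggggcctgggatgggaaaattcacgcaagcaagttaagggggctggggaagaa

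The heavy chain genes H2-K1, H2-D1 and H2-Q7 had the same order of motifs, a κB match followed by a response element core, then TGACG and ATTGG. GGGGATTCC was found in 0.2496% of the 32851 promoter windows of the table and GAANNGAAA in 7.516%. Both were found together in 10 windows, 0.03044% of all, and these belonged to 9 genes, namely H2-D1, H2-K1, H2-Q6, H2-Q7, Hyal2, R3hdm2, Tppp2, Unc45bos and Vash1. B2m had the other forms of both motifs, GGACTTTCC (0.344% of windows) and GAAANNGAA (8.56%), and H2-T23 had only the latter. TGACG followed by ATTGG after 15 to 25 bases was found in B2m, H2-K1 and H2-D1 with 20 bases between them, in H2-Q7 with 19, and in 0.4353% of all windows. It was not in the windows of H2-T23, Tap1 or Tapbp. The short motifs alone were common, with TGACG in 20.81% and CCAAT in 37.41% of windows. The H2-K1 stretch lies inside the annotated gene and is described but not printed. A match is a run of letters and not a measured binding site.

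Cell types were the authors' own labels, and their defining markers were checked first. Microglia made up 9403 cells (72.0%), with P2ry12 at 10.6 and Tmem119 at 8.09 per cell, while Mrc1 and Cd3e were at 0.023 and 0.0047. BAM, the border-associated macrophages (506 cells), had Mrc1 at 6.19 and Pf4 at 8.62. CD8+ cells (728) had Cd8a at 4.06 and Cd3e at 3.44, together with Igkc, an immunoglobulin gene, at 25.7. BCells (487) had Cd79a at 12.3 and S100a9, a neutrophil gene, at 33.4, and Ly6C+Ly6G+ cells (352) had S100a9 at 1041. Ly6CHigh cells (389) had the monocyte genes Ly6c2 at 9.70 and Ccr2 at 5.04. Ly6CLow cells (634) went partly against the label of a monocyte class, with Cd209a at 3.34, Gzma at 5.85 and Igkc at 15.1. CD4+ cells (214) had Cd4 at 1.04 and Cd3e at 2.79. ILCs (330) had Il7r at 2.52, Gata3 at 1.55 and the natural killer genes Ncr1 at 2.40 (46.7% of cells) and Gzma at 17.2, but also Cd3g in 33.9% and Cd8a in 16.4% of cells, which goes partly against their label. NKCells (9) were too few to use.

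Levels by type were taken over the pools that held at least 10 cells of the type. Types are compared as a description only, because they are labels placed on the same cells. For most members CD8+ cells, CD4+ cells and ILCs stood at the top and microglia at or near the bottom. BCells did not share that place, with rank 8 of 9 types for B2m and H2-D1, and ILCs had rank 7 for H2-T23. Tap2 and Tapbp gave another order, with microglia at rank 4 and 3. The places of some other types, such as Ly6CLow cells for B2m and H2-D1, moved when cells under 2000 UMIs were left out, as given at the end.

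The level of the light chain gene B2m ran from 14.2 ± 1.8 in CD8+ cells (SD, n = 11 pools) to 7.92 ± 2.9 in Ly6C+Ly6G+ cells (n = 9), with microglia seventh of 9 types at 10.3 ± 1.6 (n = 12). No neighbours in this order differed by more than 1 SD of their difference within pools. CD8+ cells carried 1.38 times the B2m level of microglia.

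The classical heavy chains separated the types further. H2-K1 was at 21.2 ± 2.4 in CD8+ cells, 21.1 in CD4+ cells and 20.7 in ILCs, then dropped to 12.8 in BCells and 12.4 in Ly6CLow cells. BAM followed at 9.52, Ly6CHigh cells at 7.63, microglia at 6.16 ± 0.77 and Ly6C+Ly6G+ cells at 5.16. Only the steps from ILCs to BCells (above in 11 of 11 pools) and from Ly6CLow cells to BAM (12 of 12) exceeded 1 SD of the difference.

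H2-D1 gave a different picture, with 1 low type. Microglia were at 7.62 ± 1.13, and the 8 other types ran from 15.3 ± 2.5 in BCells to 22.2 ± 1.9 in ILCs. The step from BCells to microglia was 7.66 ± 2.13 and was present in 12 of 12 pools. It was the only step over 1 SD between neighbours for this gene.

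H2-Q7, the Qa-2 gene, had the widest spread of the heavy chains. It was at 8.42 ± 1.35 in CD8+ cells, 6.79 in CD4+ cells and 5.56 in ILCs. BCells followed at 3.04, Ly6CLow cells at 1.91, BAM at 0.719, Ly6CHigh cells at 0.695, Ly6C+Ly6G+ cells at 0.471 and microglia at 0.403 ± 0.141. CD8+ cells thus had 20.9 times the level of microglia, and CD8+ cells lay above CD4+ cells in 8 of 8 pools. The last place of microglia held by the mean only, since Ly6C+Ly6G+ cells lay above them in 3 of 9 pools. The median over pools was 0.25 in Ly6C+Ly6G+ cells and 0.383 in microglia. H2-T23, the Qa-1 gene, spread far less, from 2.63 in CD8+ cells to 1.51 in Ly6C+Ly6G+ cells, with microglia eighth at 1.54 ± 0.17.

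The subunits of the peptide transporter did not share an order. Tap1 was highest in CD8+ cells (1.44 ± 0.37) and lowest in microglia (0.374 ± 0.060). Ly6C+Ly6G+ cells, the next type at 0.441, lay above microglia in 5 of 9 pools. Tap2 was highest in CD4+ cells (1.02) and lowest in Ly6CHigh cells (0.390), and microglia lay above 5 other types at 0.687 ± 0.044. Tapbp ran from 1.19 in BAM through 1.12 ± 0.04 in microglia, the third level, to 0.655 in Ly6C+Ly6G+ cells. Nlrc5 was low everywhere, at 0.395 ± 0.127 in CD8+ cells and 0.031 ± 0.016 in microglia, the lowest of the 9 types. A value above 0 for Nlrc5 was found in 31.9% of CD8+ cells and 2.45% of microglia (means over pools).

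**Figure D1:**
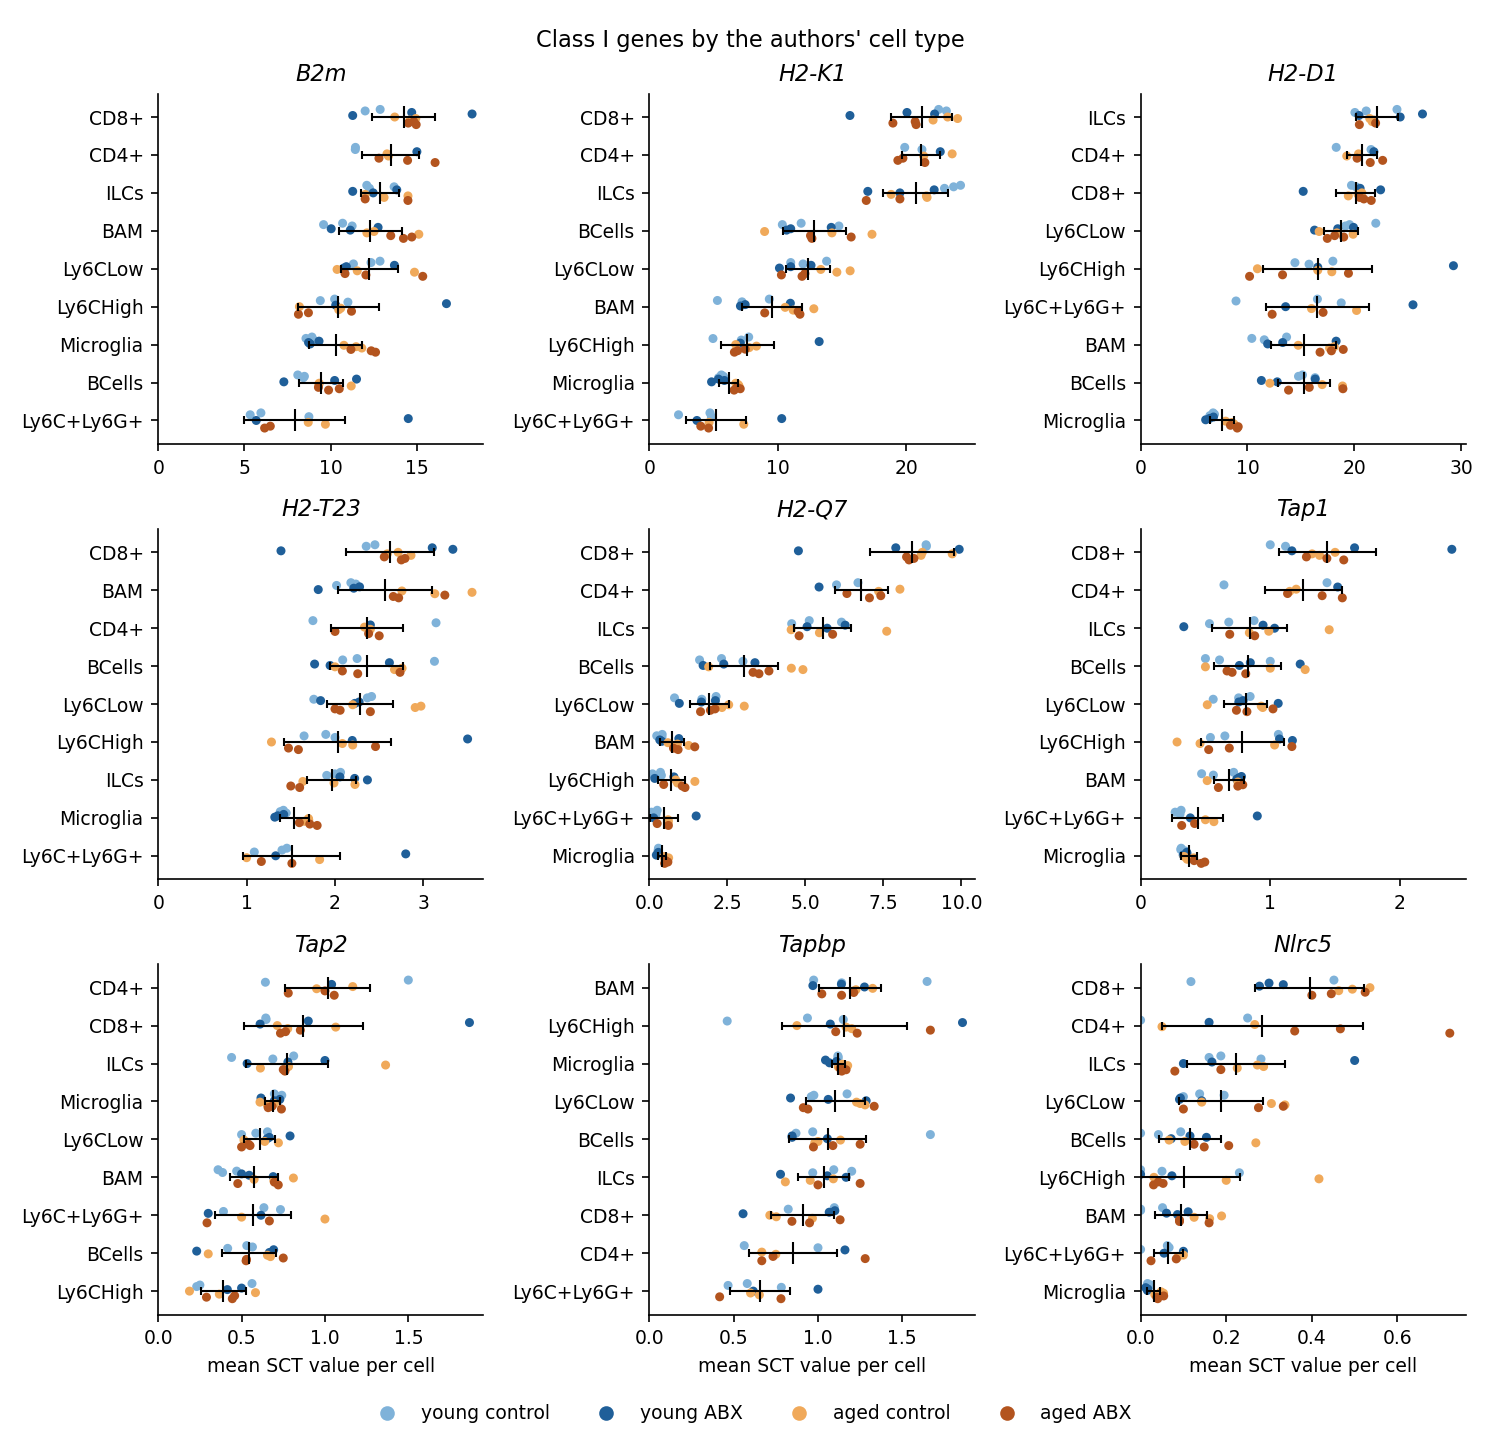
Mean SCT value per cell of each class I gene in 9 cell types. Each point is a pool with at least 10 cells of the type, coloured by group, and bars give the mean and SD over those pools; types are ordered by mean, and microglia sit last for H2-D1, H2-Q7, Tap1 and Nlrc5.

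Ratios between members within a pool removed what all members shared. The H2-D1 level over the H2-K1 level was 3.40 ± 0.63 in Ly6C+Ly6G+ cells (2.48 to 4.27 over 9 pools) and 0.956 ± 0.085 in CD8+ cells (0.849 to 1.10 over 11), with no overlap between the pools of these types. Ly6CHigh cells were at 2.18, BAM at 1.64, Ly6CLow cells at 1.54 and microglia at 1.24 ± 0.06. By their means the myeloid types lay above the lymphoid ones, but pools of microglia (1.11 to 1.37) overlapped those of BCells, ILCs and CD4+ cells, and pools of BCells reached into those of Ly6CLow cells and BAM. Counts may be split between these paralogs, so the ratios are compared between types and their absolute size is not read.

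Microglia had the lowest ratio of heavy chain to light chain. H2-K1 plus H2-D1 over B2m was 1.34 ± 0.07 in microglia (1.24 to 1.48), against 2.01 in BAM and 3.35 in ILCs. Microglia also had the lowest mean Tap1 to Tap2 ratio, 0.547 ± 0.093, while CD8+ cells were at 1.72 and Ly6CHigh cells at 2.09. The pools of microglia (0.418 to 0.751) overlapped those of Ly6C+Ly6G+ cells, the next type at 0.948 (0.364 to 3.00). Pools of ILCs (from 0.429) and BAM (from 0.633) also reached into that range. The low type means of H2-D1 and Tap1 in microglia stood beside higher ranks for B2m (7 of 9 types), Tap2 (4) and Tapbp (3).

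**Figure D2:**
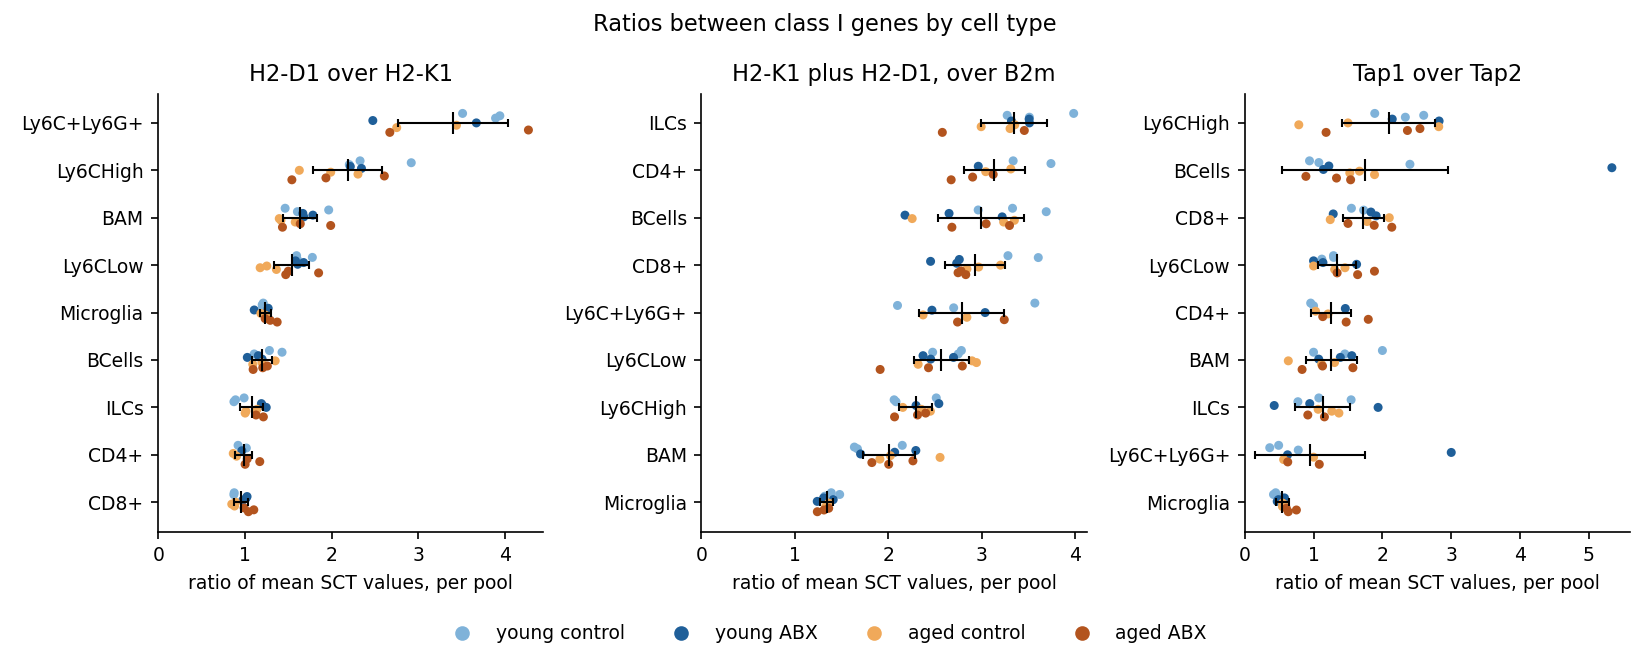
Ratios of mean SCT values between class I genes, by cell type. Each point is a pool coloured by group, and bars give the mean and SD. Microglia have the lowest mean heavy chain to B2m ratio (1.34) and the lowest mean Tap1 to Tap2 ratio (0.547). Ly6C+Ly6G+ cells have the highest mean H2-D1 to H2-K1 ratio (3.40).

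The comparison of ages asked which members differed between 72 and 12 weeks in microglia. B2m, the heavy chains H2-K1, H2-D1, H2-T23 and H2-Q7 rose in aged control and in aged ABX pools alike, Tap1 rose in the ABX pools, and Tap2 and Tapbp passed the test in neither. In controls limma called 5 of the 8 members tested, all higher, where 2.66% of all 8759 genes were called and 2.2% were called higher. In ABX pools it called 6 of 8, all higher, where 6.15% of genes were called and 4.95% higher. The members' median log2 difference was 0.27 in controls and 0.35 in ABX pools, beside 0.017 and 0.027 over all genes. The control and ABX comparisons used different pools, but both set the aged well against the young well.

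B2m was at 8.91, 8.57 and 8.99 in the young control pools and at 9.33, 8.72 and 8.81 in the young ABX pools. The aged control pools were at 10.8, 11.5 and 11.8 and the aged ABX pools at 11.2, 12.4 and 12.6. Every aged pool lay above every young pool. The level was 1.28-fold higher with age in controls (log2 difference 0.36, SE 0.066, limma adjusted p 0.00394) and 1.34-fold higher in ABX pools (0.42, adjusted p 0.000482).

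H2-Q7 had the largest log2 difference among the members on the log2(value + 0.05) scale. With the mean of log2(value + 1) per cell its difference was 0.17 in controls and 0.19 in ABX pools, below those of B2m (0.29 and 0.33). It was at 0.290, 0.287 and 0.279 in young control, 0.288, 0.276 and 0.223 in young ABX, 0.476, 0.617 and 0.497 in aged control, and 0.518, 0.592 and 0.488 in aged ABX pools. The young and aged pools did not overlap in either arm. The rise was 1.72-fold in controls (log2 0.78, SE 0.096, 95% interval 0.58 to 0.98, adjusted p 7.79e-05) and 1.87-fold in ABX pools (log2 0.90, adjusted p 1.00e-05). More cells carried it too, since 20.1% of young control and 18.9% of young ABX microglia had a value above 0, against 30.2% of aged control and 30.8% of aged ABX microglia.

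H2-D1 was at 6.79, 6.92 and 6.49 in young control and at 6.82, 6.47 and 6.09 in young ABX pools. It was at 7.96, 8.54 and 8.74 in aged control and at 8.41, 9.14 and 9.05 in aged ABX pools, again with no overlap. The log2 difference was 0.32 in controls (adjusted p 0.00834) and 0.45 in ABX pools (adjusted p 0.000201). The median microglial cell moved with the mean, from 6 in each young control pool to 7 in each aged control pool.

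H2-K1 followed the same pattern with a smaller step. The young control pools were at 5.60, 5.77 and 5.39 and the young ABX pools at 5.38, 5.84 and 4.84. The aged control pools were at 6.72, 6.91 and 6.98 and the aged ABX pools at 6.82, 7.07 and 6.59. All aged pools lay above all young pools, by 0.30 (SE 0.066, adjusted p 0.0180) and 0.35 (adjusted p 0.00299) on the log2 scale.

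H2-T23 was at 1.42, 1.38 and 1.45 in young control and at 1.42, 1.35 and 1.32 in young ABX pools. Its aged values were 1.70, 1.70 and 1.65 in control and 1.60, 1.71 and 1.80 in ABX pools. The groups did not overlap by age, with log2 differences of 0.24 (adjusted p 0.0241) and 0.31 (adjusted p 0.00243).

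The transporter, tapasin and transactivator genes differed from each other. Tap1 was at 0.313, 0.310 and 0.344 in young control, 0.356, 0.357 and 0.329 in young ABX, 0.336, 0.409 and 0.359 in aged control, and 0.413, 0.495 and 0.467 in aged ABX pools. Aged and young overlapped in controls (log2 0.16, adjusted p 0.405) and not in ABX pools (0.35, SE 0.080, adjusted p 0.0125). Tap2 ran from 0.610 to 0.741 over the 12 pools with all groups overlapping, at log2 differences of -0.13 (95% interval -0.28 to 0.02) and 0.03 (-0.12 to 0.18). Tapbp was at 1.12 ± 0.001 in young control and 1.15 ± 0.03 in aged control pools, and its aged pools lay above its young pools in both arms by at most 0.09 on the log2 scale (adjusted p 0.874 and 0.369). Nlrc5 had a mean below the filter of 0.05 and was tested only without that filter, at 18650 genes. It was at 0.016, 0.023 and 0.015 in young control, 0.012, 0.017 and 0.016 in young ABX, 0.048, 0.054 and 0.033 in aged control, and 0.054, 0.038 and 0.040 in aged ABX pools. Its young and aged pools did not overlap, and its log2 difference of 0.47 in controls did not pass (adjusted p 0.0546) while that of 0.53 in ABX pools did (adjusted p 0.0188).

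**Figure D3:**
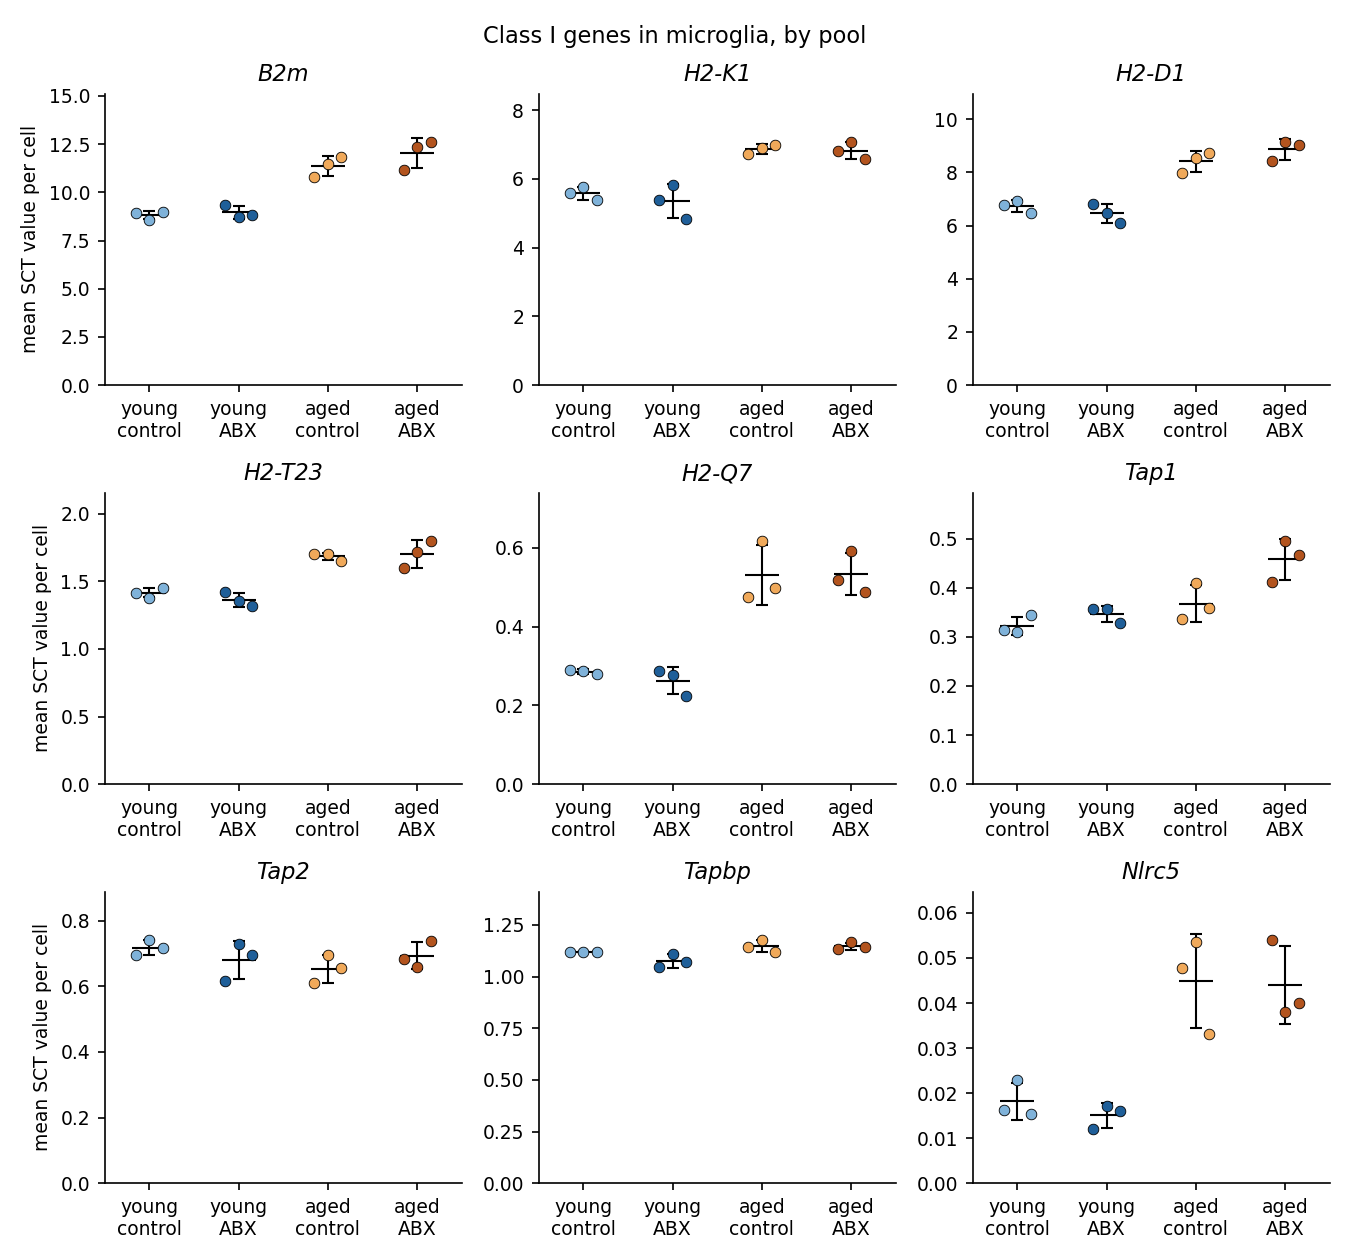
Mean SCT value per cell of the 9 class I genes in microglia, by group, with axes from 0. Each point is 1 of 3 pools per group and bars give the mean and SD; aged pools lie above young pools for B2m, H2-K1, H2-D1, H2-T23, H2-Q7 and Nlrc5 in both arms, and Tap2 overlaps.

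Counted by overlap, all aged pools lay above all young pools for 6 of the 8 tested members in controls, where 12.6% of all genes did so, and for 7 of 8 in ABX pools, where 15.4% did. The exact permutation p of each of these members was 0.1, the smallest that 3 pools against 3 allow. In controls the call of H2-K1 was lost without young control pool 1 or 3 or any 1 of the aged control pools (adjusted p 0.0510 to 0.0851). That of H2-T23 was lost without any 1 of the 6 control pools (0.0518 to 0.103), and that of H2-D1 without aged control pool 2 (0.0533) or 3 (0.0502). In ABX pools Tap1 lost its call without young ABX pool 3 (0.0575) or aged ABX pool 2 (0.0772), and the other 5 calls did not depend on any 1 pool.

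Markers of other cells moved with age in microglia. The summed level of 4 T cell markers was 0.012 to 0.020 in young and 0.041 to 0.115 in aged pools, that of 2 CD8 genes 0.0017 to 0.0086 and 0.015 to 0.034, and that of 5 B cell genes 0.342 to 0.464 and 1.05 to 1.28. The 5 neutrophil genes were lower with age, at 2.01 to 18.6 in young and 0.577 to 2.95 in aged pools, and the 5 microglia genes were at 81.3 to 87.1 and 72.4 to 79.8. In microglia with no detected T or B cell marker (1784 of 2513 young control, 1799 of 2531 young ABX, 869 of 2226 aged control and 829 of 2133 aged ABX cells) the log2 difference by age in controls was 0.36 for B2m, 0.27 for H2-K1, 0.28 for H2-D1, 0.24 for H2-T23 and 0.86 for H2-Q7. Only B2m (adjusted p 0.0205) and H2-Q7 (0.000131) were called there in controls. In the same cells of the ABX pools B2m, H2-K1, H2-D1, H2-T23 and H2-Q7 were called and Tap1 was not (log2 0.36, adjusted p 0.0967).

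The comparison of arms asked whether depletion of the microbiota changed class I in microglia. limma called 0 of 8 members for ABX minus control at 12 weeks, where it called 0.137% of all genes. It called 0 of 8 at 72 weeks (3.23% of genes), 0 of 8 for the mean of the ages (5.4%) and 0 of 8 for the change of the ABX effect with age (0%). At an unadjusted p under 0.05 there were 0 of 8 members at 12 weeks (10.6% of all genes), 1 at 72 weeks (18.4%), 1 for the mean (21.1%) and 0 for the change with age (6.61%). The member was Tap1 both times. These shares lie near or below the background.

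The interval of the difference shows what size these pools allow. For B2m the 95% interval of ABX minus control was -0.12 to 0.16 on the log2 scale in young and -0.05 to 0.22 in aged mice. For H2-K1 it was -0.20 to 0.07 and -0.15 to 0.13, for H2-D1 -0.19 to 0.07 and -0.06 to 0.21, and for H2-Q7 -0.31 to 0.09 and -0.19 to 0.21. In aged mice each of these upper bounds was smaller than the estimated age difference of the same gene in controls, and no test set the effects against each other.

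For Tap1 all 3 aged ABX pools (0.413, 0.495 and 0.467) lay above all 3 aged control pools (0.336, 0.409 and 0.359). This held for 1 of 8 members, near the 10.1% of all genes that did so. For Tapbp all young ABX pools lay below all young control pools, by 0.06 on the log2 scale, as did 9.56% of genes. The log2 difference of Tap1 for ABX minus control in aged mice was 0.28 (SE 0.080, 95% interval 0.11 to 0.45), with a limma adjusted p of 0.0612. Over both ages it was 0.19 (adjusted p 0.0593), in young mice 0.09 (adjusted p 0.734), and the difference between the ages was 0.19 with an interval of -0.05 to 0.43. The exact permutation p over both ages, with pools arranged within their age, was 0.015, and 0.25 after adjustment over all members and contrasts. Without aged control pool 2 the aged difference was called (0.35, adjusted p 0.0480), as it was without aged ABX pool 1 (0.35, adjusted p 0.0358). The share of microglia with Tap1 was highest by its mean in aged ABX pools, with 32.8% of cells above 0 against 27.6% in aged control, 26.8% in young ABX and 26.2% in young control pools. On this share the aged ABX pools (29.2% to 36.5%) and the aged control pools (25.7% to 29.9%) overlapped.

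**Figure D4:**
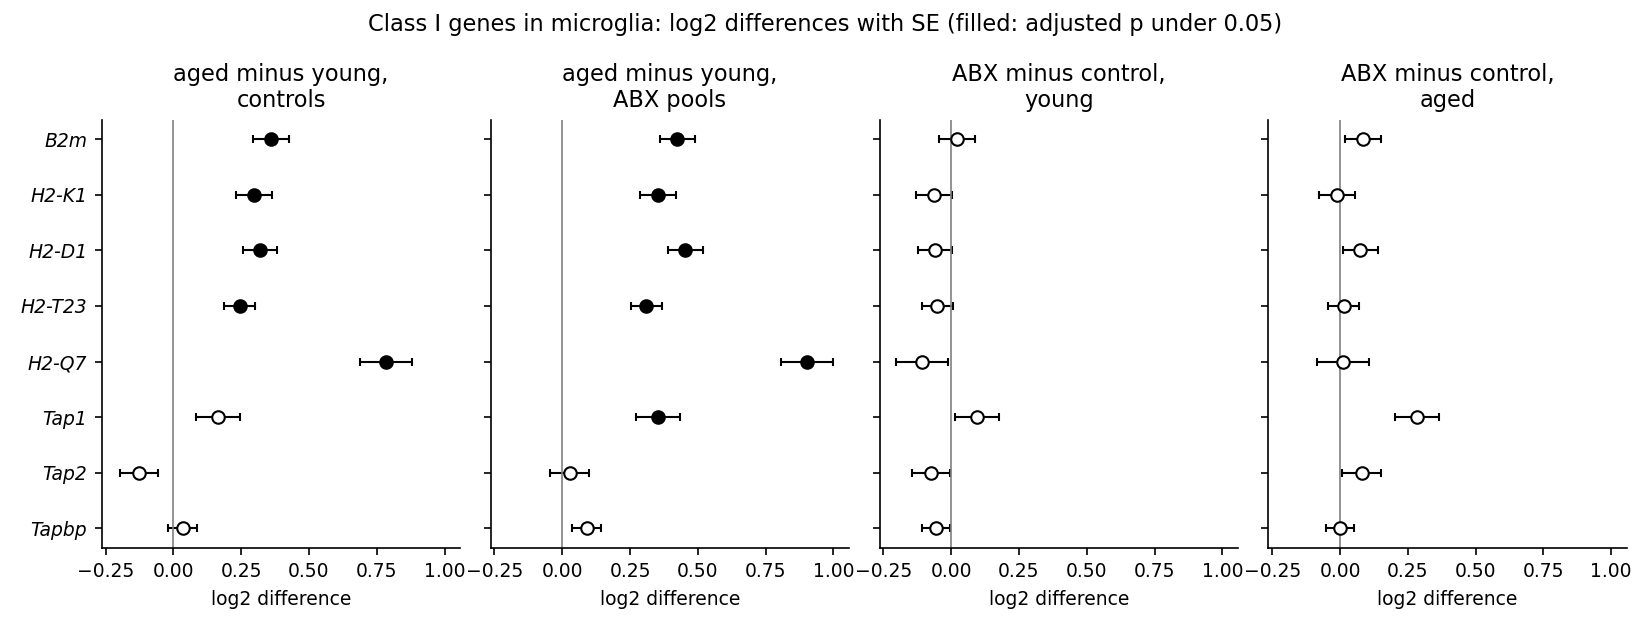
log2 differences of 8 class I genes in microglia with their SE, from limma on 12 pools, for age in each arm and ABX in each age. Filled points have an adjusted p under 0.05; B2m and the 4 heavy chain genes are filled for age in both arms, Tap1 for age in ABX pools, and none for ABX.

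Ratios between members also moved with age in microglia. H2-Q7 over H2-K1 was 0.0511 in young control, 0.0490 in young ABX, 0.0771 in aged control and 0.0779 in aged ABX pools. Tap1 over Tap2 was 0.449 ± 0.031, 0.513 ± 0.057, 0.562 ± 0.022 and 0.663 ± 0.078 in the same order (SD, n = 3), so the lowest and highest groups lay apart by more than their spread. H2-D1 over H2-K1 was close to level, between 1.21 and 1.30. These ratios were not tested.

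In the other cell types 0 members were called in any contrast, at shares of called genes (over all types together) of 0.263% for age in controls, 0.61% for age in ABX pools, 0.033% for ABX in young, 0.0319% for ABX in aged mice, 0.0139% for the mean ABX effect and 0.00694% for its change with age. At an unadjusted p under 0.05, age in controls gave 7 of 9 members in BAM, where 6.08% of all genes stood. It gave 1 of 9 each in BCells (8.05% of genes), CD8+ (11.4%), Ly6C+Ly6G+ (2.01%), Ly6CHigh (12.8%) and Ly6CLow cells (16.2%), and 0 in CD4+ cells (5.84%) and ILCs (8.67%). CD4+ cells could be tested only for age in controls and for ABX in aged mice. In aged mice 4 of 9 members lay lower in all ABX than in all control pools of Ly6C+Ly6G+ cells (32.7% of genes). So did 2 each in CD8+ (5.54%), Ly6CLow (2.79%) and ILCs (8.97%), and 1 lay higher in CD4+ cells (9.27%). In young mice 1 each lay lower in CD8+ cells (6.56%) and ILCs (4.26%). Higher were 3 in BAM (6.94%), 2 in Ly6CHigh (11.5%) and 1 each in CD8+ (14.9%) and Ly6C+Ly6G+ cells (13.2%). The lower ones included H2-K1 in young ILCs and aged Ly6CLow cells.

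In BAM the class I genes were higher by age in controls without passing the test. There all 9 members had a log2 difference above 0 with a median of 0.54, beside 0.010 over all genes. The aged control pools lay above the young control pools for 7 of 9 members, where 5.82% of all genes did so. H2-K1 was at 9.33, 5.29 and 7.21 in young control and 10.6, 12.8 and 11.2 in aged control pools (log2 0.69, SE 0.19, adjusted p 0.392). H2-Q7 was at 0.410, 0.235 and 0.404 against 0.595, 0.900 and 1.26 (log2 1.25, adjusted p 0.342), and Nlrc5 at 0.051, 0 and 0 against 0.189, 0.125 and 0.161 (adjusted p 0.277). Young control pool 2 held 17 BAM, and it was the lowest pool for H2-K1, H2-D1 and H2-Q7.

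BAM of young ABX pools had H2-K1 at 10.97, 7.45 and 7.09 and those of aged ABX pools at 11.6, 8.98 and 11.7, with overlap. B2m and H2-T23 did not overlap there, 2 of 9 members, where 2.58% of all genes lay higher in all aged pools, and neither passed the test. The log2 difference for H2-Q7 was 0.94 in ABX pools (adjusted p 0.421). The summed microglia markers in BAM were 17.7 to 34 in young control, 18.7 to 30.8 in aged control, 14.97 to 31.9 in young ABX and 10.2 to 16.6 in aged ABX pools, and their part in the levels was not tested.

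CD8+ cells had the highest mean levels of B2m, H2-T23, H2-Q7, Tap1 and Nlrc5, and stood beside CD4+ cells for H2-K1 (21.2 and 21.1, or 21.5 and 21.7 in pools of at least 20 cells), and none of their members passed the test. In controls 5 of 9 members lay higher in all 3 aged than in both young pools, where 17.1% of genes did. H2-K1 was at 22.5 and 23.1 in young control and at 22.1 to 24.0 in aged control pools. Young control pool 2 held 5 CD8+ cells and was left out. H2-K1 was lower in all ABX than in all control pools at both ages. Its ABX pools were at 15.6 to 22.2 in young and 19.0 to 20.8 in aged mice. In aged mice H2-Q7 was lower too, at 8.25 to 8.48 in ABX against 8.71 to 9.71 in control pools. These were 2 of 9 members in aged mice, where 5.54% of all genes lay lower. In young mice 1 member lay higher in all ABX pools, where 14.9% of genes did. In CD8+ cells of control pools 5 B cell genes summed to 0.129 to 0.765 in young and 0.875 to 37.6 in aged pools, and 5 neutrophil genes to 2.06 to 113.2 and 0.464 to 0.591. Their part in the class I levels was not tested.

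H2-Q7 was also higher by value in aged control pools of Ly6CHigh and Ly6CLow cells. In Ly6CHigh cells it was at 0.354, 0.1 and 0.385 in young control and 0.844, 1.46 and 0.900 in aged control pools (log2 1.87, adjusted p 0.231). In Ly6CLow cells it was at 2.14, 0.805 and 1.68 against 2.54, 3.04 and 2.33 (log2 0.85, adjusted p 0.166). Aged control pools lay above young control pools in both, where 3.37% of all genes did so in Ly6CHigh and 4.89% in Ly6CLow cells, and neither passed. In ABX pools the ages overlapped in both types. The aged control pools of Ly6C+Ly6G+ cells also lay above the young ones for H2-Q7, at means of 0.604 (n = 2) and 0.178 (n = 3). Those of CD4+ cells did too, at 7.69 and 6.34 (n = 2 each). Of all genes 11.1% did so in Ly6C+Ly6G+ and 14.8% in CD4+ cells, and neither H2-Q7 difference passed the test. Ly6CHigh cells had a median of 14036 UMIs in young control and 8556 in aged control pools, with 1.23% and 45.3% of cells under 2000. In Ly6CLow cells 5 ILC markers summed to 0.341 to 0.948 in young control and 2.33 to 5.11 in aged control pools, and 5 B cell genes to 0.1 to 0.621 and 0.686 to 44.05. The part of depth and of these markers in the H2-Q7 values was not tested.

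Among the other heavy chain genes of the class I family, 8 of 14 were tested in microglia. With age in controls 3 rose, H2-Q6 by 0.78, H2-Q4 by 0.28 and H2-M3 by 0.27 on the log2 scale, and 0 fell. In ABX pools 4 rose, H2-Q6 by 0.82 (adjusted p 6.91e-05), H2-M3 by 0.54, H2-Q4 by 0.46 and H2-T22 by 0.36. The list's median was 0.23 and 0.34. Over all genes 2.2% were called higher with age in controls and 4.95% in ABX pools. In controls the count of these heavy chains was 1 without young control pool 1 or 3, young ABX pool 1 or any 1 of the aged control pools. Mr1, which presents vitamin metabolites to MAIT cells, rose by 0.27 with ABX over both ages (adjusted p 0.0349). It was the 1 of 8 called for that effect, where 5.4% of all genes were called. H2-Q6 is a near copy of H2-Q7, and their reads may be shared.

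The genes that cut and load peptides stayed closer to the rest. Of 10 tested, Psmb9, a subunit of the immunoproteasome, rose by 0.30 with age in ABX pools (adjusted p 0.00645), and 0 were called for age in controls. Calr, the chaperone calreticulin, fell by 0.44 with ABX in aged mice (adjusted p 0.00242) and by 0.37 for the mean ABX effect. Psmb9 and Calr were each the 1 of 10 called. The shares of all genes called were 6.15% for age in ABX pools, 3.23% for ABX in aged mice and 5.4% for the mean ABX effect. The list's medians were within 0.08 of 0 in all 6 comparisons.

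Regulators of class I were tested as a list of 18. With ABX in aged mice Nfya and Creb1, which encode proteins of the complex that binds the class I promoter, fell by 0.48 and 0.45, and Irf8, an interferon regulatory factor of myeloid cells, fell by 0.34 (adjusted p 0.00384 to 0.00615). The same 3 fell over both ages, by 0.28, 0.39 and 0.26. With age in controls 0 of 18 were called.

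Of the 7 interferon receptor and kinase genes, Ifngr1, a chain of the interferon-gamma receptor, fell with age by 0.24 in controls (adjusted p 0.0230) and by 0.28 in ABX pools (adjusted p 0.00554). It was the 1 of 7 called in each, where 2.66% and 6.15% of all genes were called. MHC class II genes, of which 6 of 7 were tested, gave 0 calls, with medians of 0.16 and 0.24 for age and all 6 above 0. Of 11 receptors that bind class I, 1 was tested in microglia and it was not called.

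The interferon-stimulated genes outside class I changed with age too. Of 13 tested among 18, 6 rose in controls, with Ifi204 at 0.82, Ifit3 at 0.75, Ifi27l2a at 0.75 and Ifitm3 at 0.57, and 12 rose in ABX pools, with Ifi27l2a at 1.74, Ifi204 at 1.16, Oasl2 at 0.99 and Ifit3 at 0.91. The medians were 0.41 and 0.83. Over all genes 2.2% were called higher with age in controls and 4.95% in ABX pools. ABX raised Oasl2 in aged mice (0.42, adjusted p 0.0271) and lowered Ifi27l2a in young mice (-0.63, adjusted p 0.0467). Each was the 1 of 13 called, where 3.23% of all genes were called for ABX in aged and 0.137% in young mice. In controls the count for age was 2 without aged control pool 2 and 3 without young control pool 1.

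Microglia were then divided by how many of these 18 genes were detected in the cell. This gives ranges of a per-cell count and not cell types, and 2278 cells with 2 genes and 900 with 3 lay next to the limit used. Cells with 3 or more made up 16.02% ± 0.89 of young control, 12.1% ± 0.6 of young ABX, 25.6% ± 2.6 of aged control and 30.1% ± 3.5 of aged ABX microglia (SD, n = 3). They were deeper, with median totals of 7180 to 8283 UMIs per pool, against 5814 to 6814 in cells with 0.

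The members B2m, H2-K1, H2-D1, H2-T23, H2-Q7, Tap1 and Nlrc5 were higher in cells with 3 or more than in cells with 1 to 2 in all 12 pools, where 3.12% of 8746 genes were. The median ratio was 1.43 for B2m, 1.31 for H2-K1, 1.51 for H2-D1, 1.38 for H2-T23, 1.64 for H2-Q7, 1.88 for Tap1 and 2.79 for Nlrc5. The Nlrc5 levels were near 0, at 0.010 to 0.051 and 0.020 to 0.104 over the pools, and its ratio ran from 1.27 to 4.73. Nlrc5 lay below the filter of 0.05 and is not among the 8746 genes. Tap2 and Tapbp were higher in 10 of 12 pools each, at 1.12 and 1.09. In cells of 5000 to 10000 UMIs, a choice made after the data were seen, the same 7 members were higher in all 12 pools, where 1.14% of genes were, with 1.497 for H2-D1 and 1.72 for Tap1. Tap1 thus moved with these genes, and its partner Tap2 hardly did.

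Age and this count were present together. In cells with none of the 18 genes detected H2-D1 was at 5.45 to 5.79 in young control, 5.31 to 5.78 in young ABX, 6.38 to 7.40 in aged control and 6.95 to 7.04 in aged ABX pools. The aged and young pools of H2-D1 did not overlap in these cells. In controls all aged pools lay above all young pools for 4 of 9 members, H2-K1, H2-D1, H2-T23 and H2-Q7. In ABX pools this held for 4 of 9, B2m, H2-K1, H2-D1 and H2-Q7. B2m overlapped in controls, at 7.96 in aged control pool 2 and 8.07 in young control pool 3. Tap1, Tap2, Tapbp and Nlrc5 were among these in neither arm. The share over all genes was not computed for these cells, so the counts of members cannot be set against it. Over all microglia that share was 12.6% in controls and 15.4% in ABX pools.

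**Figure D5:**
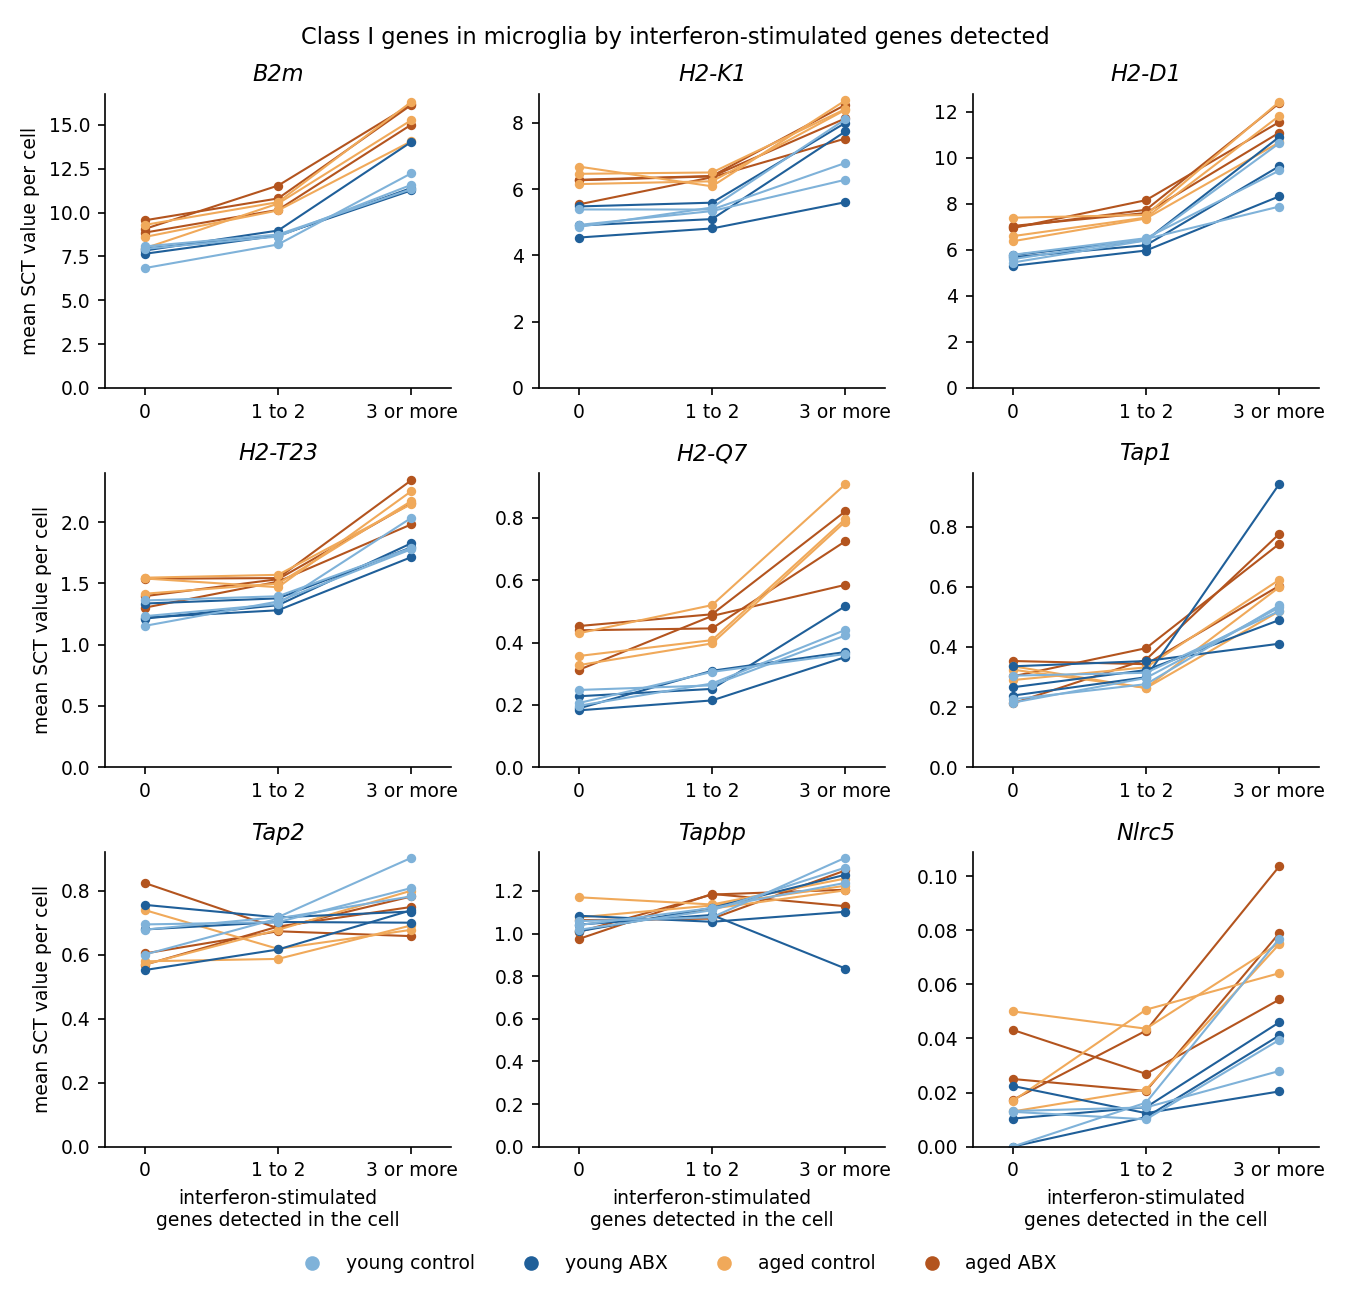
Mean SCT value per cell of the class I genes in microglia with 0, 1 to 2 or 3 or more detected interferon-stimulated genes outside class I, with axes from 0. Each line is a pool coloured by group; 7 genes are higher in the last range than in the middle one in all 12 pools, and Tap2 and Tapbp in 10.

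Ifng, the gene of interferon-gamma, was highest in T cells and ILCs. Its level in CD8+ cells was 1.87 ± 1.68 in young control (n = 2 pools), 1.14 ± 1.04 in young ABX, 1.70 ± 0.32 in aged control and 1.88 ± 0.53 in aged ABX pools (n = 3), so the groups overlapped. A value above 0 was present in 41.3%, 32.8%, 53.2% and 55.2% of these cells. In microglia it was present in 0.188% to 0.724% of cells and in BAM, which should lack it, in 0% to 0.855%, at median depths of 6934 and 7610.5 UMIs, and these shares were not read as expression. CD4+ cells were at 1.27 to 2.21 and ILCs at 0.660 to 1.35 over the group means. Ly6CLow cells were at 0.087 to 0.723, with 3.92% to 10.2% of cells above 0, and BCells had it in 2.08% to 13.7% of cells.

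CD8+ cells were 0.658% to 2.57% of the cells of young pools and 6.31% to 13.2% of those of aged pools. Whether microglial class I followed this share was tested within each well, since the wells form separate clusters. Over 9 members and both wells, 18 relations were computed and 0 had an exact permutation p under 0.05, with a lowest adjusted p of 0.306. The 4 values of r above 0.7 in size were for B2m in young pools (Pearson r 0.78, Spearman rho 0.71, exact permutation p 0.0583 and 0.136, n = 6), for Nlrc5 in young pools (r -0.77, rho -0.54, exact permutation p 0.0639 and 0.297, n = 6) and for Tap2, with opposite signs in young pools (r -0.74, rho -0.60) and aged pools (r 0.77, rho 0.60), each with exact permutation p of 0.0681 and 0.242 (n = 6). Without the 2 pools farthest from the median share r was 0.16 for B2m, 0.31 for Nlrc5, -0.16 for young Tap2 and 0.83 for aged Tap2, and 6 of the 18 values of r changed sign. With the share taken among cells other than microglia, 18 more relations gave 0 exact p under 0.05 for r and a lowest adjusted p of 0.924, and r was 0.53 for young B2m and -0.04 for aged Tap2. No relation passed the test in either set.

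Across the 12 microglia pools the members followed their own mean to different degrees. H2-D1 correlated with the mean of the members' standardized levels at 0.96, H2-Q7 at 0.95, B2m and H2-T23 at 0.93, H2-K1 at 0.92, Tapbp at 0.84, Tap1 at 0.83 and Tap2 at -0.01. Each member is part of that mean, and the pools share the wells and groups, so these are descriptions. The genes most like the mean were Slfn5 (r 0.98), Bst2 (0.97), Axl (0.97), H2-M3 (0.95) and Ifit3 (0.95). After the group means were taken away they were Kbtbd3 (0.92), Slfn5 (0.90), Naa50 (0.88), Bcl2a1d (0.88) and Plek (0.86), over the same 12 pools.

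Over 36 means of a type in a group, the order was another. H2-K1 followed the members' mean at 0.95, Tap1 at 0.91, H2-Q7 and Nlrc5 at 0.88 and 0.87, B2m at 0.87, H2-T23 at 0.82, H2-D1 at 0.72, Tap2 at 0.60 and Tapbp at 0.20. Tapbp and H2-D1 went slightly against each other (r -0.21). The most similar genes were Rpl36 and Rpl38 (0.91 each), AW112010 (0.91), Pla2g16 (0.91) and Rpl37a (0.91), of which 3 encode ribosomal proteins. The points share libraries and depth, and no test was made.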

How the data were processed

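Single-cell RNA was read in 2 wells with the 10x 3′ assay, per the labels' protocols. The RNA values deposited by the authors are scores, 1 whole-number SCT value for each of 19848 genes in each cell. Their sum in each cell matched the metadata's own SCT sum and equalled the raw total in 62 of 13052 cells. Raw UMI counts per cell, pools, groups and cell types were taken from the deposited metadata. The table was named for SCTransform by the authors. Cell Ranger 3.0.2, Seurat 3.0.1 and mm10 are named in the submitters' processing notes; the covariates of the correction, the filters on cells, the treatment of doublets and the handling of reads shared by paralogs are not given in the sources used here. Of the metadata, 35 columns were left unused.

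For each type, SCT values were averaged over the cells of each pool, 0.05 was added and the log2 was taken. Genes averaging 0.05 or more across pools were tested with limma 3.58.1 (R 4.3.3, trended prior) on all pools with at least 10 cells of the type, with a contrast tested where each group kept at least 2 such pools, 6 contrasts, Benjamini-Hochberg adjustment within a contrast and a threshold of 0.05. Fold changes are on the log2(value + 0.05) scale and understate those of low genes. Exact permutation tests were two-sided. The fit was tested on simulated data. Promoter motifs were searched on both strands of the RefSeq windows with Python 3.11.15. SCT values are corrected values and not raw counts, so no counting interval is given.

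Named were all members, up to 4 called genes of the largest change per list and contrast, Ifng, and the 5 genes most like the members' mean. The members and lists were chosen with earlier results of these data known. Alternatives covered the pseudocount, the filter, the scaling, depth, the prior and each pool left out. Those on barcodes shared between wells, on cells without T or B cell markers, on depth within the ranges of interferon-stimulated genes and on the list counts were chosen after seeing the data. The antibody tags were not used here, since no antibody apart from the hashtags, whose targets were not examined, bound class I. Some marker and list genes, and comparisons that need them, are not reported here.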

Additional observations from a re-analysis of the deposited data

How the results depend on the processing

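Over the other settings, 1088 values of class I genes in microglia kept their side of the threshold, 10 passed it newly and 22 lost it. B2m and H2-Q7 were called for age in 24 of 24 settings in both arms. In controls H2-D1 was called in 21, H2-K1 in 16 and H2-T23 in 16 of 24 settings, with highest adjusted p of 0.177, 0.154 and 0.276, and in ABX pools Tap1 in 21 of 24. Members called for age in controls fell from 5 to 3 with an untrended prior and to 2 in microglia with no T or B cell marker, and to between 2 and 5 with 1 pool left out. For ABX in aged mice Tap1 made 1 call with the mean of log2(value + 1) per cell, with values scaled to their sum and in cells of at least 2000 UMIs, and 0 to 1 with 1 pool left out. Over both ages it made 1 call with a filter of 0.2, with scaling and in cells of at least 2000 UMIs, and 0 to 1 with 1 pool left out. In other types 1 member was called with the mean of log2(value + 1) per cell (H2-Q7 in Ly6CLow cells, adjusted p 0.00685). With 1 pool left out 0 to 1 was called, Nlrc5 in CD8+ cells without young control pool 1 (adjusted p 0.0139) and Tap1 in CD8+ cells without young ABX pool 3 (0.0421). Interferon-stimulated genes higher with age in controls were 3 with no filter, 3 in microglia of 5000 to 10000 UMIs, 2 with no T or B cell marker and 2 to 7 with 1 pool left out. In ABX pools they were 4 with a filter of 0.2, which leaves fewer genes. Other heavy chains higher with age in controls were 1 with no filter, with an untrended prior and with no T or B cell marker, and 1 to 2 with 1 pool left out. Apart from the filters, which change the genes tested, and the pools and cells left out, the cause of these changes was not tested. Microglia ranked sixth for B2m (rank 6) in pools of at least 20 cells and by share of cells above 0, rank 7 for H2-T23 by that share and rank 3 for Tap2 in pools of at least 20 cells. In cells of at least 2000 UMIs microglia kept their ranks, but other types moved. Ly6CLow cells went from rank 5 to 2 for B2m (12.2 to 13.96) and from 4 to 2 for H2-D1 (18.8 to 21.1), each by more than its SD. Ly6CHigh cells went from rank 6 to 3 for Tap1. Cells under 2000 UMIs were 19.9% of Ly6CLow and 35.2% of Ly6CHigh cells. No paired analysis was possible because the groups share no replicate numbers in the labels. Raw counts per gene were not used here, so cells could not be thinned to 1 depth.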
